A study of Mus musculus with 23 samples.

Results

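The transporter genes followed in the small intestine were Slc15a1, Slc6a19, Slc6a20a, Slc7a9, Slc3a1, Slc7a7, Slc7a8, Slc3a2, Slc1a1 and Slc36a1, which carry peptides and amino acids across the intestinal epithelium. These 10 genes were chosen by name, for their place on the absorptive path of amino acids and peptides, out of 19215 entries in the expression table. Earlier results of these data were known when they were chosen, so their counts of calls are not an independent test against all genes. All 10 were in the table and all 10 were above the limit of a mean of 1 FPKM (fragments scaled to transcript length and to library size) that 11337 entries passed.

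RNA from the small intestine of male ICR mice was sequenced as 23 libraries. The labels number them as replicates of a group, and the sources used here do not say whether they came from separate mice, so p-values measure the spread between these libraries, which may be technical. All recipients were first injected with busulfan, an alkylating drug that kills dividing cells, at 40 mg/kg, when they were 3 weeks old. From the next day they were gavaged with saline (Sa) or with a fecal microbiota transplant (FMT), which was the pooled luminal content of the small intestine of donor mice. The donors had been dosed with water (Con-FMT), with alginate oligosaccharide (AOS) at 10 mg/kg (A10-FMT) or with AOS at 100 mg/kg (A100-FMT), so each FMT group stands for 1 pool of donors, and busulfan was given to every group, Sa included. The sample codes divide the libraries into set 1 and set 2, and what the sets are is not given. The study's methods give daily gavage for 1 week, then 1 week without it, and an age of 5 weeks at collection, and whether these times hold for both sets is not given. Each treatment had 3 libraries per set, apart from Sa of set 1, which had 2.

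Protein in the gut lumen is cut by pancreatic and brush-border peptidases into short peptides and free amino acids. These enter the enterocyte through transporters of the apical membrane and leave it through exchangers of the basolateral membrane. Slc3a1 and Slc3a2 encode heavy chains, single-pass proteins that bring a light chain to the right membrane. Slc3a1 pairs with Slc7a9 at the apical side, and Slc3a2 pairs with Slc7a7 or Slc7a8 at the basolateral side. Slc15a1 takes up dipeptides and tripeptides with protons, Slc6a19 takes up neutral amino acids with sodium, Slc6a20a takes up proline, Slc1a1 takes up glutamate and aspartate, and Slc36a1 takes up small neutral amino acids with protons.

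By NCBI Gene number, the apical genes were Slc15a1 (56643, chr14:121459621-121505254), Slc6a19 (74338, chr13:73679745-73700780), Slc6a20a (102680, chr9:123636907-123678832), Slc7a9 (30962, chr7:35448727-35466034), Slc3a1 (20532, chr17:85028347-85064241), Slc1a1 (20510, chr19:28835135-28913960) and Slc36a1 (215335, chr11:55204322-55236330). The basolateral genes were Slc7a7 (20540, chr14:54369442-54420068), Slc7a8 (50934, chr14:54722215-54781886) and Slc3a2 (17254, chr19:8706882-8723369). These are whole gene loci of RefSeq on GRCm38, the assembly also known as mm10, which the submitters' processing notes name. Slc7a7 overlaps Oxa1l and Slc3a1 overlaps Prepl, at a mean of 49.5 and 18.8 FPKM. Slc6a20a has a near copy, Slc6a20b, at 1.15 FPKM. Whether fragments were counted by strand was not given in the sources used here, so reads of overlapping genes cannot be told apart with certainty.

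Promoters are shown for Slc6a19, Slc15a1 and Slc3a1, the genes with the widest range over the groups for free amino acids, for peptides and for a heavy chain. Each run is the 150 bases before the 1 start that the RefSeq table of GRCm38.p6 gives for the gene, written 5′ to 3′ on the gene's strand, with capitals for matches to the motif letters given after the runs, on either strand. For Slc15a1 and Slc3a1 this start is the edge of the locus given above, while for Slc6a19 it lies 8144 bases inside the locus, at position 73692636, so the run of Slc6a19 is from within the annotated gene.
Slc6a19 promoter, chr13:73692637-73692786, minus strand: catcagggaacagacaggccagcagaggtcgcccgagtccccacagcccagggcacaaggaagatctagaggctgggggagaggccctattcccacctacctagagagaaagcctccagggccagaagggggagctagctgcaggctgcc
Slc15a1 promoter, chr14:121505255-121505404, minus strand: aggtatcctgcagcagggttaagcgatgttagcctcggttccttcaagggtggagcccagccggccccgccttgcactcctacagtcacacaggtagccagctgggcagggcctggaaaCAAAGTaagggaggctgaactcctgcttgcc
Slc3a1 promoter, chr17:85028197-85028346, plus strand: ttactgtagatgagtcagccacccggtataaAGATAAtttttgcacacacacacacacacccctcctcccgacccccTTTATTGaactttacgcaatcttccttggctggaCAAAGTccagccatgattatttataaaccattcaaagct
Letters known from sites of intestinal transcription factors were searched on both strands of the 250 bases before 32851 RefSeq starts, 15 of which belonged to the 10 genes. CAAAGT, part of the HNF4 motif, was in 12.6% of all windows and in windows of Slc15a1, Slc3a1 and Slc7a7. AGATAA, part of the GATA motif, was in 9.99% of all windows and in those of Slc7a9, Slc3a1 and Slc7a7. GTTAAT, the HNF1 half-site, was in 6.43% and in windows of Slc6a20a, Slc7a7 and Slc36a1, and CAATAAA, part of the CDX motif, was in 4.2% and in the window of Slc3a1 alone among the 10 genes. None of these letters was in the window of Slc6a19, which is that of the start inside the locus. No binding was measured, so these matches are descriptions of sequence.

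The label of the tissue was checked against defining markers. Absorptive enterocyte genes were abundant, with Apoa1, which encodes an apolipoprotein of chylomicrons, at a mean of 1980 FPKM in Sa of set 1 and 2140 FPKM in Sa of set 2. Paneth cell genes such as Defa24 (mean 5230 FPKM) and goblet cell genes such as Zg16 (mean 3000 FPKM) were abundant too. The smooth muscle genes Acta2, Myh11, Des, Cnn1 and Actg2 were listed at 0 in 6 to 19 of the 23 libraries, with means of 0.033 FPKM or less.

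Replicate 3 of Sa in set 1 stood apart from the other libraries. Over the 11337 genes its correlations with the other libraries were 0.944 to 0.965 (Pearson, log2 scale), while those of all other pairs were 0.968 to 0.991. Its deviations from the median library followed GC content with a Spearman coefficient of 0.69, against -0.221 to 0.22 in the others. Its description also names the column of another replicate number than its title does. That column had a coefficient of -0.087 with GC content, within the range of the others. Its title decided which column stood for it here. For counts of calls against Sa of set 1, of transporters and of gene lists, the count without this library is given too. Without it, or without replicate 1, Sa of set 1 is 1 library and the other groups alone give the spread. The p-values and counts of those fits therefore do not measure the spread within Sa of set 1.

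The A10-FMT groups held the extremes of most of the 10 transporters. In set 1, A10-FMT was highest of all 8 groups for Slc15a1, Slc6a19, Slc7a9, Slc3a1, Slc7a7, Slc3a2 and Slc36a1. In set 2, A10-FMT was lowest of all 8 groups for Slc15a1, Slc6a19, Slc6a20a, Slc7a9, Slc3a1, Slc7a7 and Slc3a2. Ranked by their means, neighbouring groups mostly overlapped. Among the exceptions, A10-FMT of set 1 stood above the next group, 1.79-fold for Slc6a19, 1.35-fold for Slc7a7, 1.33-fold for Slc15a1, 1.29-fold for Slc36a1, 1.27-fold for Slc3a1 and 1.08-fold for Slc3a2. At the low end, A10-FMT of set 2 stood below the next group for Slc6a19 (1.36-fold), Slc7a7 and Slc3a2 (both 1.09-fold). The other neighbours without overlap, such as Sa of set 2 over Sa of set 1 for Slc6a20a (1.12-fold), differed by 1.04-fold to 1.19-fold. Summed over the 10 genes, A10-FMT was at 776, 743 and 873 FPKM in set 1 and at 508, 485 and 506 FPKM in set 2. The sums of the other 17 libraries ran from 540 to 681 FPKM, between these 2 groups and without overlap with either.

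**Figure D1:**
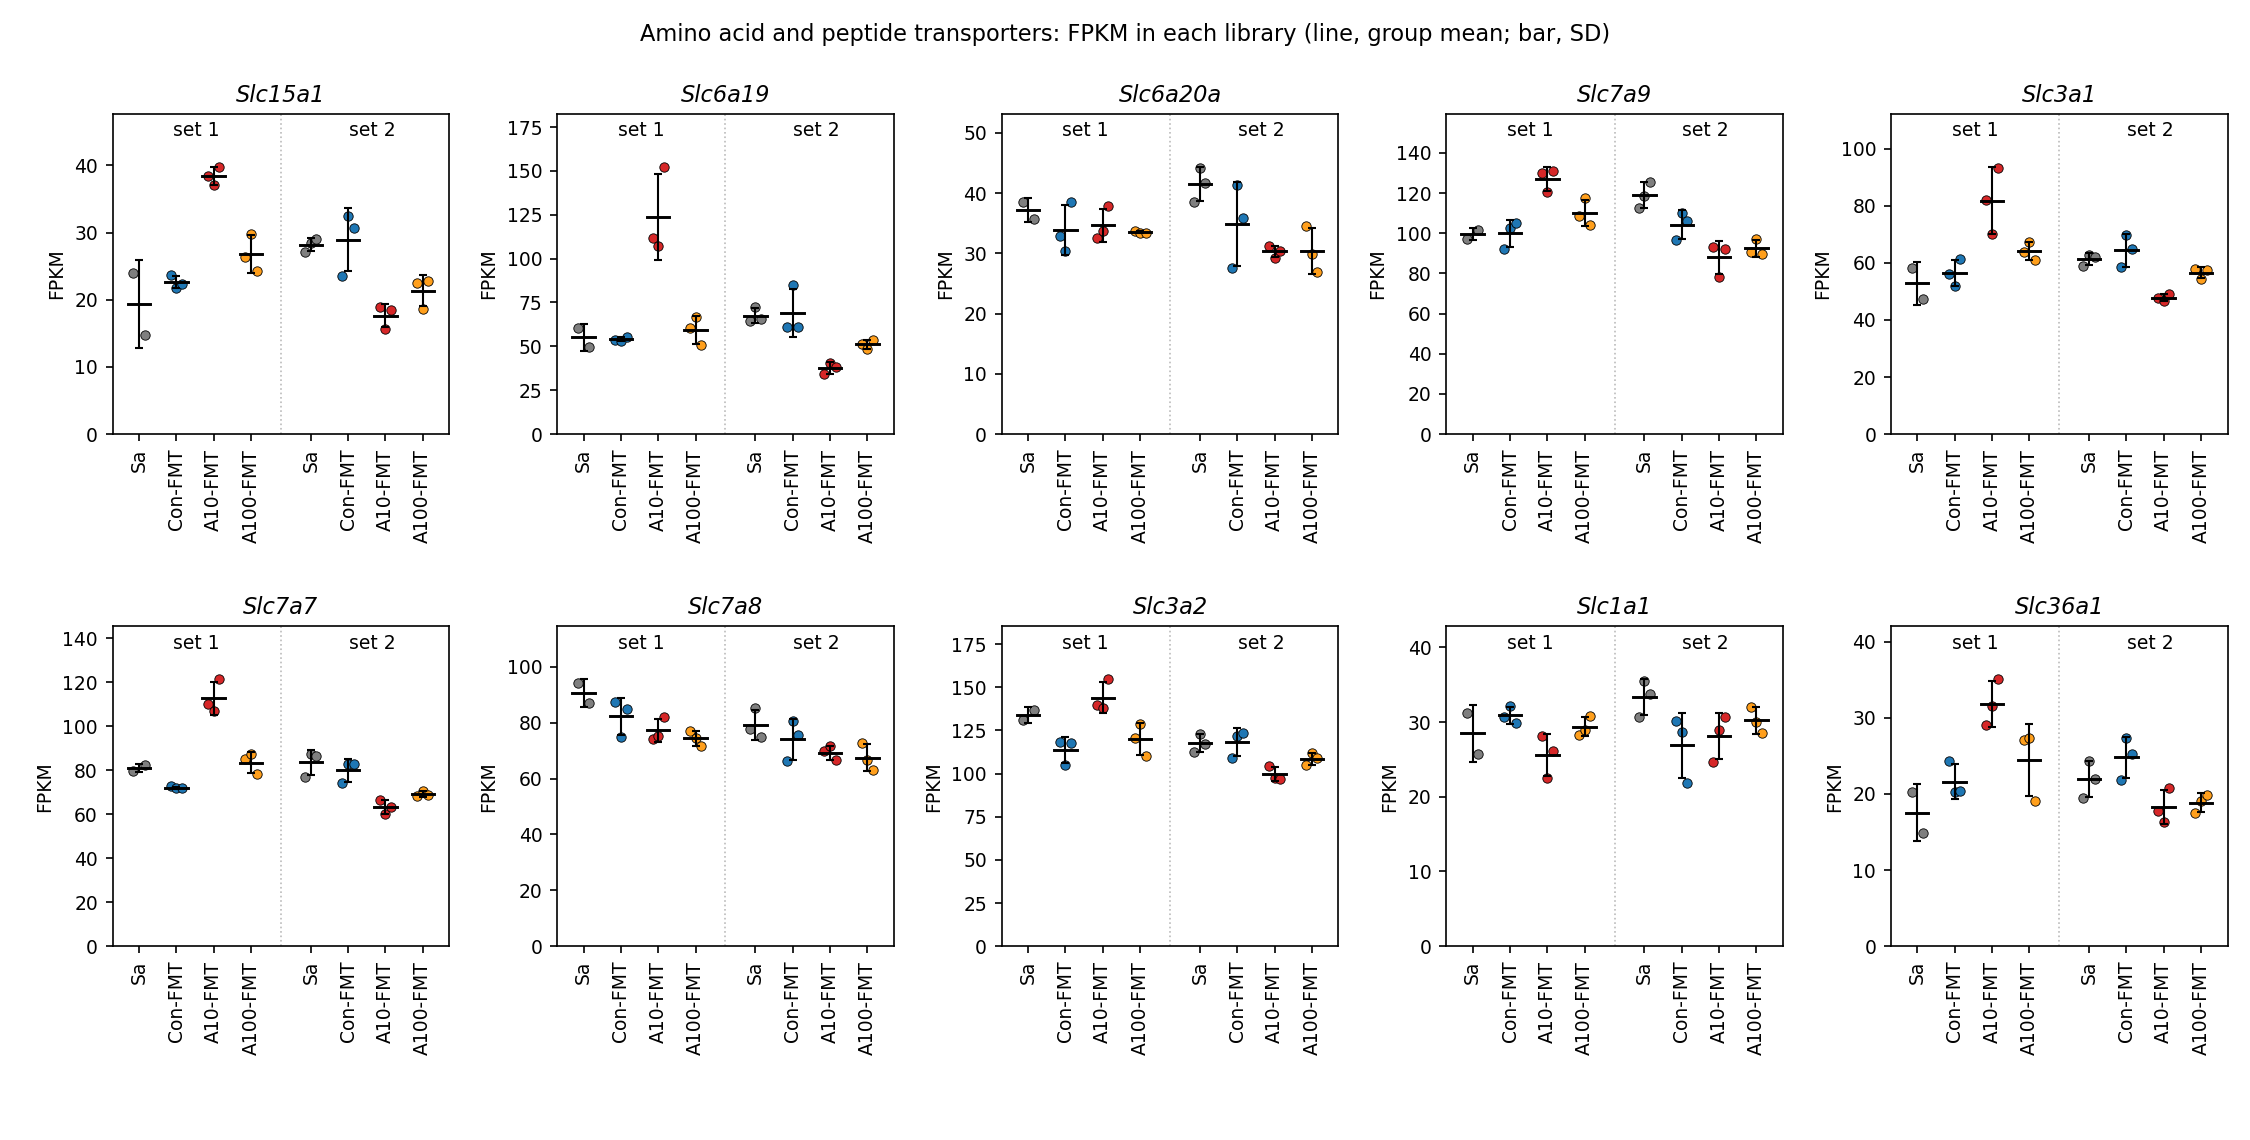
FPKM of the 10 transporters (vertical axes, linear, from 0) in each of the 23 libraries, by treatment and set (points, libraries; line, group mean; bar, SD; n = 3, and 2 for Sa of set 1). The A10-FMT libraries of Slc6a19 sit at 107 to 152 FPKM in set 1 and at 34.3 to 40.8 FPKM in set 2, while those of Slc7a8 and Slc1a1 lie within the range of the other groups.

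The first question was whether each FMT group differed from Sa. In Sa vs. A10-FMT, set 1, 6 of the 10 transporters rose and none fell by limma's test at an adjusted p under 0.05, where 32.0% of all genes tested passed (13.6% upward, 18.4% downward). The median log2 change was 0.41 over the 10 genes and -0.012 over all genes tested. In set 2, 4 of 10 fell and none rose, where 0.423% of all genes passed (0.0882% upward, 0.335% downward). There the median was -0.37 over the 10 genes and 0.03 over all genes tested. Compared with Sa, 7 transporters were higher (13.9% of all genes) and 1, Slc7a8, was lower (23.5% of all genes) without overlap in set 1. In set 2, 9 were lower (11.4% of all genes) and none was higher (19.2% of all genes) without overlap. Without replicate 3 of Sa in set 1, 6 transporters rose in set 1, among 922 genes called in place of 3627, and 5 fell in set 2. The count of set 2 was 0 without replicate 2 of A10-FMT or without replicate 2 or 3 of Sa, and 2 without replicate 1 of A10-FMT. With array quality weights, or with only the groups compared in the fit, none of 10 passed in set 1. The weights were equally low for both Sa libraries of set 1, since 2 libraries lie equally far from their mean. They therefore cannot tell replicate 3 from replicate 1. In set 2 the count was 8 with weights, 7 after a correction for GC content and length, and 1 with no filter on low values. The share of all genes in these fits, or in set 2 without replicate 3 of Sa in set 1, is not given here.

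Con-FMT vs. A10-FMT does not use the Sa libraries of set 1 in its means. In set 1, 7 of 10 rose and none fell, where 16.7% of all genes passed (5.2% upward, 11.5% downward). In set 2, 3 of 10 fell and none rose, where 0.379% of all genes passed (0.00882% upward, 0.37% downward). The count of set 2 was 0 without replicate 2 or 3 of A10-FMT or of Con-FMT, and 1 without replicate 2 of Con-FMT in set 1 or replicate 3 of A100-FMT in set 2. It was also 0 in a fit on the groups compared alone, with no filter on low values and with the replicate number as a block. With array quality weights it was 7, and the share of all genes in that fit is not given here. The comparisons with Sa and with Con-FMT share the A10-FMT libraries.

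**Figure D2:**
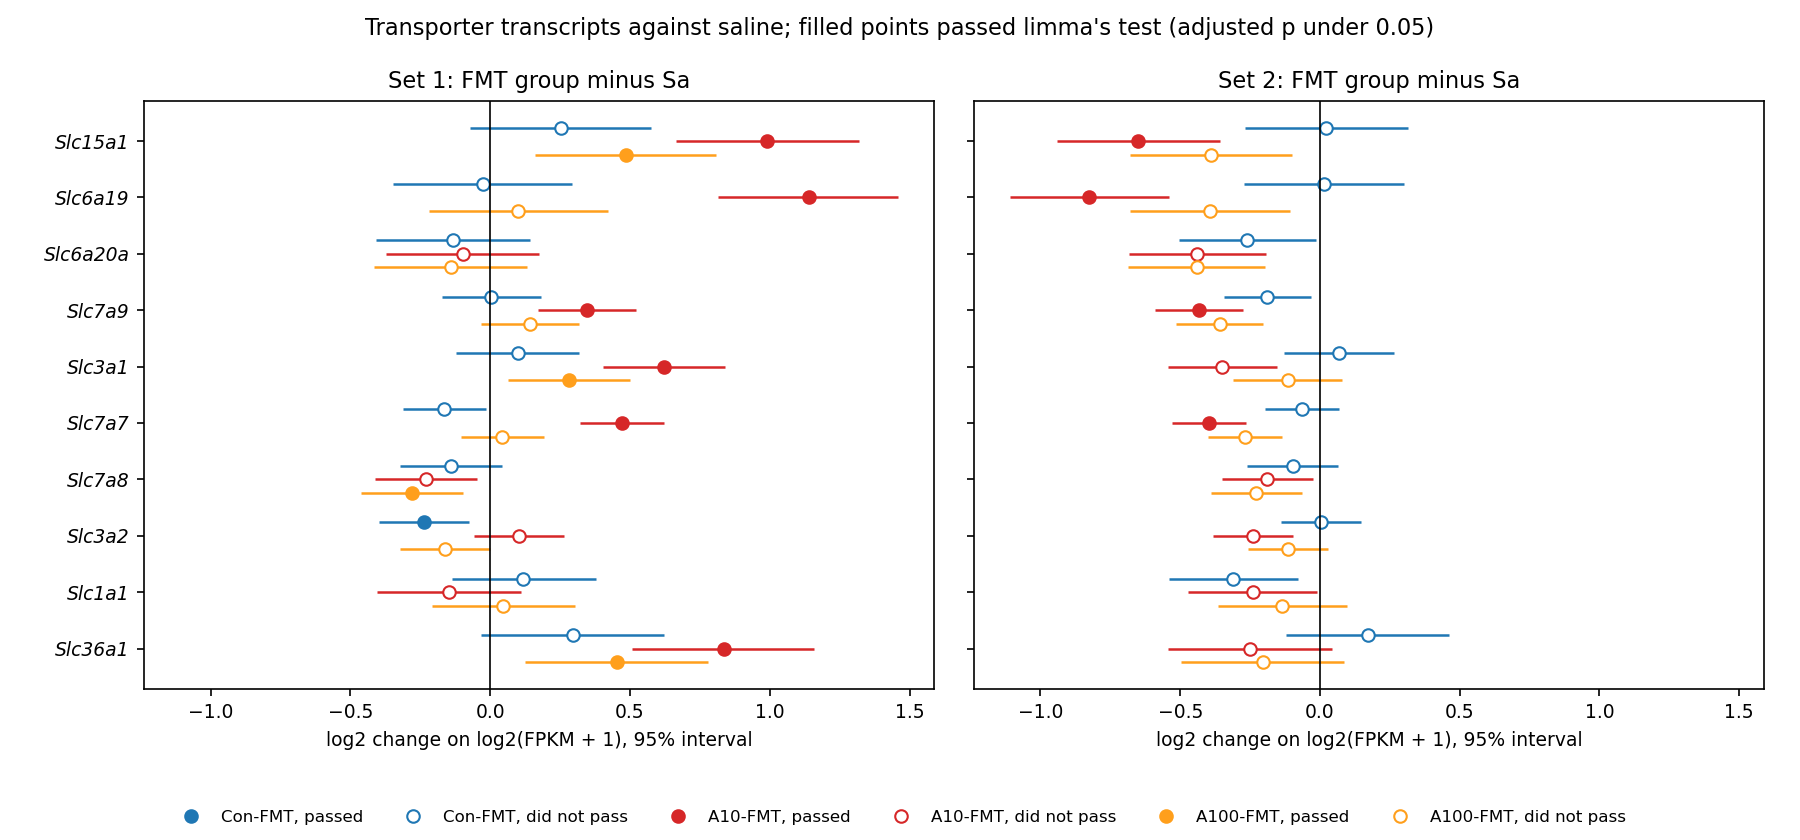
log2 change of each FMT group against Sa with its 95% interval (horizontal axis, log2(FPKM + 1)) for the 10 transporters in set 1 (left) and set 2 (right); filled points passed limma's test. The A10-FMT points of Slc15a1 and Slc6a19 lie at 0.99 and 1.14 in set 1 and at -0.65 and -0.83 in set 2.

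Slc6a19, the main carrier of neutral amino acids at the brush border, had the widest range, 3.28-fold between the highest and the lowest group mean. In set 1 it was at 60.7 and 49.8 FPKM in Sa, 53.4, 53.2 and 55.3 in Con-FMT, 112, 107 and 152 in A10-FMT, and 60.7, 66.8 and 50.8 in A100-FMT. Every A10-FMT library of set 1 was above every other library of the study. Set 2 had 64.4, 72.2 and 65.9 FPKM in Sa, 60.9, 84.8 and 61.1 in Con-FMT, 34.3, 40.8 and 38.0 in A10-FMT, and 51.5, 48.3 and 53.6 in A100-FMT. Every A10-FMT library of set 2 was below every other library. Against Sa, Slc6a19 rose by 1.14 ± 0.15 (log2 change ± SE, adjusted p = 0.00051), or 2.2-fold, in set 1 and fell by 0.83 ± 0.14 (adjusted p = 0.0226), to 0.564 times the Sa value, in set 2. The change of set 1 was 0.996 without replicate 3 of Sa (adjusted p = 0.0101). Against Con-FMT it rose by 1.16 (adjusted p = 0.000256) in set 1 and fell by 0.84 (adjusted p = 0.0315) in set 2.

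Slc15a1, the peptide carrier also known as PepT1, varied 2.18-fold between group means. In set 1 it was at 24.03 and 14.7 FPKM in Sa, 23.7, 21.8 and 22.4 in Con-FMT, 38.4, 37.1 and 39.7 in A10-FMT, and 26.4, 29.8 and 24.3 in A100-FMT. The lowest value of the study, 14.7 FPKM, was that of replicate 3 of Sa in set 1. In set 2 the gene was at 27.1, 28.4 and 29.0 FPKM in Sa, 23.6, 32.4 and 30.7 in Con-FMT, 18.9, 15.6 and 18.4 in A10-FMT, and 22.4, 18.7 and 22.8 in A100-FMT. A10-FMT was above all other groups in set 1, and in set 2 it was below Sa and Con-FMT and overlapped A100-FMT. Slc15a1 rose by 0.99 ± 0.15 against Sa in set 1 (adjusted p = 0.000661), or by 0.65 without replicate 3 of Sa (adjusted p = 0.0176). It fell by 0.65 ± 0.14 in set 2 (adjusted p = 0.0485), a call that was lost without any 1 of 20 libraries.

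Slc3a1 and Slc7a9 form the apical exchanger of cystine and cationic amino acids, whose loss causes cystinuria. Slc3a1, the heavy chain, was at 58.2 and 47.4 FPKM in Sa, 56.0, 52.0 and 61.2 in Con-FMT, 82.2, 70.1 and 93.3 in A10-FMT, and 64.0, 67.3 and 61.1 in A100-FMT of set 1. Set 2 had 58.9, 62.9 and 62.0 FPKM in Sa, 58.5, 69.9 and 64.9 in Con-FMT, 47.6, 46.8 and 49.1 in A10-FMT, and 57.7, 54.2 and 57.5 in A100-FMT. A10-FMT overlapped no other group of its own set. Slc3a1 rose by 0.62 ± 0.10 against Sa in set 1 (adjusted p = 0.000889), or by 0.475 without replicate 3 of Sa (adjusted p = 0.0255). In set 2 its change of -0.35 ± 0.09 against Sa did not pass (adjusted p = 0.1), although it did without replicate 3 of Sa in set 1 (adjusted p = 0.0357). Nor did its change of -0.42 against Con-FMT pass (adjusted p = 0.0575).

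The light chain Slc7a9 was at 97.3 and 102 FPKM in Sa, 92.2, 102 and 105 in Con-FMT, 130, 120.3 and 131 in A10-FMT, and 109, 117 and 104 in A100-FMT of set 1. Set 2 had 113, 119 and 126 FPKM in Sa, 96.5, 110.3 and 106 in Con-FMT, 93.3, 78.3 and 92.0 in A10-FMT, and 90.4, 97.3 and 89.5 in A100-FMT. Here A10-FMT of set 2 lay below Sa and Con-FMT but overlapped A100-FMT. Slc7a9 rose by 0.35 ± 0.08 against Sa in set 1 (adjusted p = 0.00583) and fell by 0.43 ± 0.07 in set 2 (adjusted p = 0.0241). The rise of set 1 was 0.38 without replicate 3 of Sa. With the column that the description names for that replicate it was 0.531 (adjusted p = 0.000604).

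Slc36a1, the proton-coupled carrier of glycine, alanine and proline, was the least abundant of the 10, with a mean of 22.6 FPKM. Its values in set 1 were 20.2 and 14.9 FPKM in Sa, 24.3, 20.2 and 20.4 in Con-FMT, 29.0, 31.5 and 35.02 in A10-FMT, and 27.0, 27.3 and 19.0 in A100-FMT. The A10-FMT libraries of set 1 were again above all others. In set 2 the gene was at 19.5, 24.2 and 21.9 FPKM in Sa, 21.9, 27.3 and 25.2 in Con-FMT, 17.8, 16.3 and 20.7 in A10-FMT, and 17.5, 19.1 and 19.9 in A100-FMT. Slc36a1 rose by 0.83 ± 0.15 in Sa vs. A10-FMT of set 1 (adjusted p = 0.00152), or by 0.629 without replicate 3 of Sa (adjusted p = 0.045), and its change of -0.25 ± 0.14 in set 2 did not pass (adjusted p = 0.435).

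On the basolateral side, Slc7a7 exports cationic amino acids in exchange for neutral ones, and its loss causes lysinuric protein intolerance. In set 1 it was at 79.5 and 82.3 FPKM in Sa, 72.6, 71.8 and 71.8 in Con-FMT, 109.8, 107 and 121 in A10-FMT, and 84.8, 87.2 and 78.3 in A100-FMT. Set 2 had 76.9, 87.4 and 86.3 FPKM in Sa, 73.9, 83.0 and 82.8 in Con-FMT, 66.4, 60.0 and 63.1 in A10-FMT, and 68.1, 70.5 and 68.8 in A100-FMT. The A10-FMT libraries were above all others in set 1 and below all others in set 2. Slc7a7 rose by 0.47 ± 0.07 against Sa in set 1 (adjusted p = 0.000584), or by 0.496 without replicate 3 of Sa (adjusted p = 0.00957), and fell by 0.40 ± 0.06 in set 2 (adjusted p = 0.0226). Oxa1l, the overlapping gene, which encodes an insertase of the mitochondrial inner membrane, had -0.42 against Sa in set 1 (adjusted p = 0.00339), with 50.71 and 68.51 FPKM in the Sa libraries, the higher being replicate 3. Without that replicate it had -0.20 (adjusted p = 0.1), and against Con-FMT it had -0.16 (adjusted p = 0.186).

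Slc3a2, the basolateral heavy chain and the most abundant of the 10 (mean 119 FPKM), varied less, 1.45-fold between group means. It was at 131 and 137 FPKM in Sa, 118, 105 and 118 in Con-FMT, 139, 138 and 155 in A10-FMT, and 121, 129 and 110.2 in A100-FMT of set 1. Set 2 had 113, 123 and 117 FPKM in Sa, 109, 122 and 124 in Con-FMT, 104, 97.3 and 97.0 in A10-FMT, and 105, 112 and 109 in A100-FMT. Unlike for the genes above, both Sa libraries of set 1 were high, above every library but those of A10-FMT of the same set. Slc3a2 rose in Con-FMT vs. A10-FMT of set 1 by 0.34 ± 0.07 (adjusted p = 0.00347), and its change of 0.10 ± 0.08 against Sa did not pass (adjusted p = 0.308). With the column that the description names for replicate 3 of Sa, its change against Sa was 0.235 and passed (adjusted p = 0.0283), and without that replicate it was 0.136 (adjusted p = 0.378).

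Slc7a8, the basolateral exchanger of neutral amino acids, did not share the pattern. It was highest in Sa of set 1, at 94.1 and 87.2 FPKM, and lowest in A100-FMT of set 2, at 72.8, 66.5 and 63.2 FPKM. A10-FMT was at 74.4, 75.3 and 82.0 FPKM in set 1 and at 69.9, 71.5 and 66.5 FPKM in set 2. These groups did not overlap, and both lay within the range of the other groups. Its changes against Sa were -0.23 ± 0.09 in set 1 (adjusted p = 0.0512) and -0.19 ± 0.08 in set 2 (adjusted p = 0.278), with the same sign in both sets. With the description's column the change in set 1 was -0.251 and passed (adjusted p = 0.0263), and without replicate 3 of Sa it was -0.283 (adjusted p = 0.104).

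Slc6a20a and Slc1a1 had no call in any of the A10-FMT comparisons. Slc6a20a, the proline carrier, was at 32.5 to 37.8 FPKM in A10-FMT of set 1 and 29.3 to 31.2 FPKM in A10-FMT of set 2, and its highest group was Sa of set 2, at 38.6 to 44.2 FPKM. Its change in Sa vs. A10-FMT was -0.10 ± 0.13 in set 1 (95% interval -0.37 to 0.18) and -0.44 ± 0.12 in set 2 (adjusted p = 0.1). Slc1a1, the carrier of acidic amino acids, had its lowest group mean in A10-FMT of set 1, at 22.6 to 28.2 FPKM, where the 7 genes above had their highest. Its values over all 23 libraries ran from 21.9 to 35.4 FPKM, and neighbours in the order of its group means all overlapped.

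The next question was whether the effect of A10-FMT differed between the sets, which was tested as a difference of differences (set 2 minus set 1). In Sa vs. A10-FMT, 7 of the 10 transporters had a lower change in set 2 than in set 1 and none a higher one, where 28.4% of all genes differed (17.8% upward, 10.6% downward). With array quality weights none of 10 passed, and without replicate 3 of Sa in set 1, 7 did. Slc6a19 differed most, by -1.96 (95% interval -2.39 to -1.53, adjusted p = 5.06e-05). Slc15a1 differed by -1.64 (adjusted p = 0.000164) and Slc36a1 by -1.09 (adjusted p = 0.00149). The cystine exchanger differed in both chains, Slc3a1 by -0.97 and Slc7a9 by -0.78. Slc7a7 differed by -0.87 (adjusted p = 8.05e-05) and its heavy chain Slc3a2 by -0.34 (adjusted p = 0.0196). The differences without replicate 3 of Sa in set 1 were -1.82 for Slc6a19, -1.3 for Slc15a1, -0.892 for Slc7a7, -0.88 for Slc36a1, -0.825 for Slc3a1, -0.814 for Slc7a9 and -0.376 for Slc3a2.

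For 3 transporters a difference between the sets did not pass. Slc7a8 had 0.04 with an interval of -0.20 to 0.28, Slc1a1 had -0.09 with an interval of -0.44 to 0.25, and Slc6a20a had -0.34 with an interval of -0.71 to 0.03. The interval of Slc6a19 overlapped none of these, while that of Slc3a2, -0.56 to -0.13, overlapped all of them.

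Leaving Sa out, the difference between the sets in Con-FMT vs. A10-FMT had calls for 7 of 10 transporters, all downward, where 20.8% of all genes differed (14.1% upward, 6.7% downward). This test was chosen after the values had been seen. Slc6a19 differed by -2.00, Slc15a1 by -1.41, Slc7a7 by -0.97, Slc36a1 by -0.96, Slc3a1 by -0.94, Slc7a9 by -0.59 and Slc3a2 by -0.58. The median change of all genes tested was 0.126 here, and trimmed-mean scaling, which brought it to 0.017, left 7 calls. The count was 7 without any 1 library. Slc7a8 had -0.003 with an interval of -0.23 to 0.23.

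**Figure D3:**
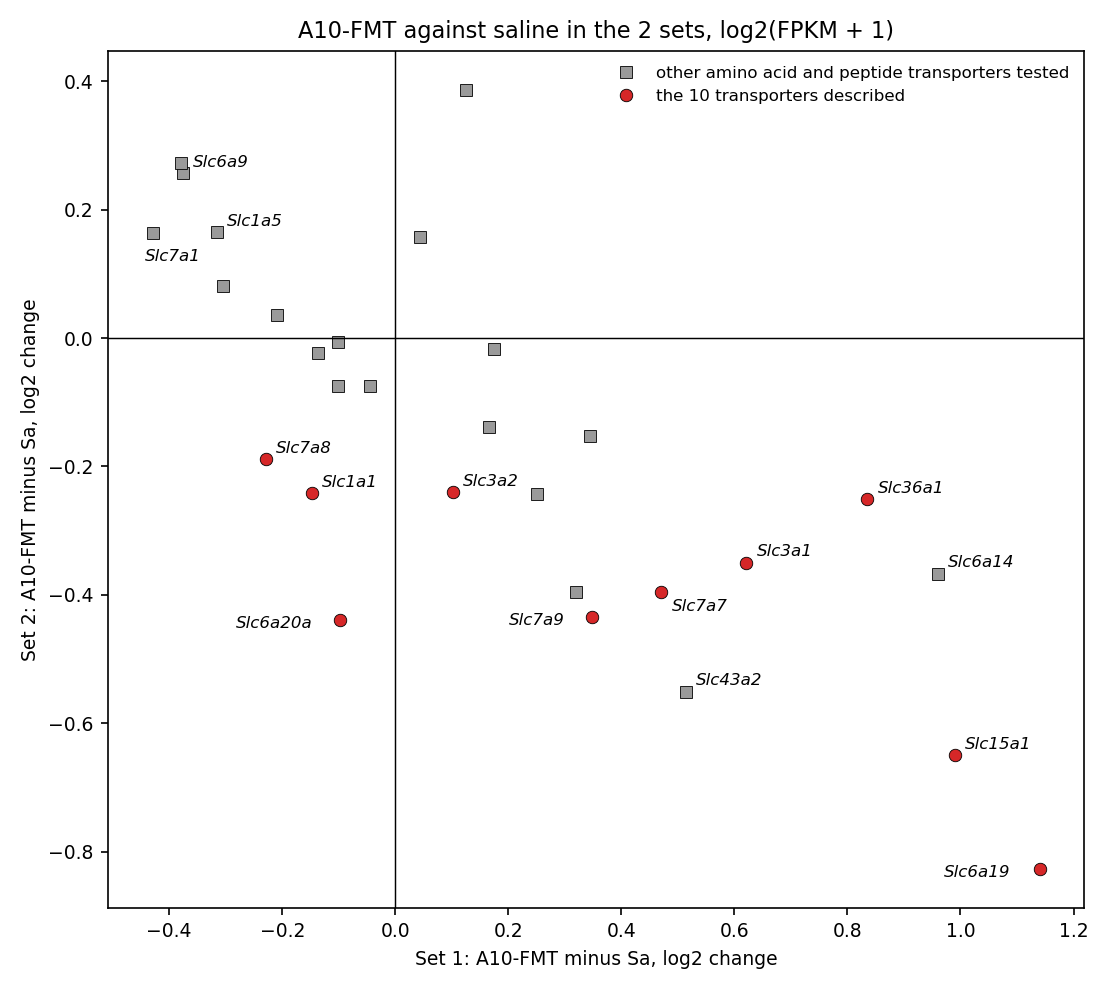
log2 change in Sa vs. A10-FMT of set 1 (horizontal axis) and of set 2 (vertical axis), on log2(FPKM + 1), for the 10 transporters (red circles) and the 19 other amino acid and peptide transporters tested (grey squares). Slc6a19 lies farthest to the lower right, at 1.14 and -0.83, and 7 of the 10 lie right of 0 and below 0.

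A100-FMT was compared with the same Sa libraries. In Sa vs. A100-FMT, set 1, 3 of 10 rose and 1 fell, where 35.2% of all genes passed (22.0% upward, 13.1% downward). Slc15a1 rose by 0.48 (adjusted p = 0.0257), Slc36a1 by 0.45 (adjusted p = 0.0338) and Slc3a1 by 0.28 (adjusted p = 0.0443), and Slc7a8 fell by 0.28 (adjusted p = 0.0228). None of these passed without replicate 3 of Sa in set 1, where 27 genes were called in all, and the count was 1 without replicate 1 or 2 of A100-FMT and 2 without its replicate 3. The count was 0 with array quality weights or with only the groups compared in the fit. It was 2 with no filter on low values, quantile normalization, trimmed-mean scaling, the description's column or the GC content and length correction. With the description's column these were Slc7a8 (-0.303, adjusted p = 0.032) and Slc7a9 (0.326, adjusted p = 0.0379), which was not called in the main fit. The 3 rises named above did not pass with that column. In Sa vs. A100-FMT of set 2 none of 10 passed, where 0.0353% of all genes passed (0.0176% in each direction). At an unadjusted p under 0.05 were 6 of the 10 and 1606 of the 11337 genes tested. In this set 8 were lower in A100-FMT without overlap (10.1% of all genes). Without replicate 1 or without replicate 3 of Sa in set 1, 4 passed, and with array quality weights 6 did. The shares of all genes in these fits are not given here, so these counts are not set against them. Averaged over both sets, 1 of 10 passed, Slc7a8 with -0.25 (adjusted p = 0.0441), where 0.891% of all genes passed (0.829% upward, 0.0617% downward). That call was lost without each of 20 of the 23 libraries. Among the settings that left out no library, it held only with a pseudocount of 0.1, the description's column and the GC content and length correction.

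The doses of AOS given to the donors were compared directly. In A10-FMT vs. A100-FMT of set 1, 5 of 10 were lower in A100-FMT and none higher, where 5.66% of all genes passed (3.95% upward, 1.71% downward). Slc6a19 had -1.04 (adjusted p = 0.00146), so A100-FMT was at 0.488 times the A10-FMT value. Slc7a7 had -0.43 (adjusted p = 0.00275), Slc15a1 -0.51 (adjusted p = 0.0409), Slc3a1 -0.34 (adjusted p = 0.0416) and Slc3a2 -0.27 (adjusted p = 0.0324). The count was 2 without replicate 1 or 3 of A10-FMT or of A100-FMT in set 1. It was 3 without replicate 2 of A10-FMT or replicate 1 of Con-FMT in set 1, or replicate 2 or 3 of Sa or replicate 3 of A10-FMT in set 2. With only the groups compared in the fit the count was 0, with the replicate number as a block it was 2, and with no filter on low values or quantile normalization it was 3. In set 2 none of 10 passed, where 0.00882% of all genes passed, and Slc6a19, Slc3a1, Slc7a7 and Slc3a2 were higher in A100-FMT without overlap (9.53% of all genes).

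The effect of A100-FMT against Sa differed between the sets for 5 of 10, all downward, where 26.8% of all genes differed (13.3% upward, 13.5% downward). These were Slc15a1 with -0.88, Slc36a1 with -0.66, Slc7a9 with -0.50, Slc3a1 with -0.40 and Slc7a7 with -0.31. Only Slc7a9 passed without replicate 3 of Sa in set 1 (-0.53, adjusted p = 0.035). The count was 2 without replicate 1 or 2 of A100-FMT in set 1 or replicate 2 or 3 of Sa in set 2, and 3 without replicate 1 of A100-FMT in set 2. With array quality weights or with only the groups compared in the fit it was 0, and with no filter on low values or trimmed-mean scaling it was 3.

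Con-FMT, the transplant from donors given water, had 1 call. In Sa vs. Con-FMT, 1 of 10 passed in set 1, where 26.9% of all genes passed (17.7% upward, 9.17% downward). Slc3a2 fell by 0.24 (adjusted p = 0.0348). None passed there without replicate 3 of Sa or without any 1 of the Con-FMT libraries, and 3 passed without replicate 1 of Sa. Among the settings that left out no library, the call held only with a pseudocount of 0.1, a filter at 5 FPKM and trimmed-mean scaling. None of 10 passed in set 2, where 0.0353% of all genes passed. At an unadjusted p under 0.05 were 3 of the 10 and 651 of the 11337 genes tested. For Con-FMT vs. A100-FMT none of 10 passed in set 1 (0.406% of all genes, 0.194% upward and 0.212% downward) or in set 2 (0.0% of all genes). At an unadjusted p under 0.05 were 1 of the 10 and 1282 genes in all in set 1, and 5 of the 10 and 1270 genes in set 2. No transporter passed averaged over both sets for Con-FMT (0.75% of all genes, 0.67% upward and 0.0794% downward) or for A10-FMT (0.132% of all genes, 0.106% upward and 0.0265% downward). Unadjusted, 4 of 10 and 2659 genes in all were under 0.05 for Con-FMT, and 4 of 10 and 2260 genes for A10-FMT. None had a Con-FMT effect that differed between the sets (0.00882% of all genes). Unadjusted, 2 of 10 and 3893 of the 11337 genes tested were under 0.05 there. These 3 counts of adjusted calls rose without replicate 1 of Sa in set 1 and did not without its replicate 3. Fits without either replicate leave 1 Sa library in that set, and their shares of all genes are not given here. Their counts are therefore not set against all genes.

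Averaged over the FMT groups, 8 of 10 transporters were lower in set 2 than in set 1, where 9.64% of all genes differed (6.01% upward, 3.63% downward). Slc6a19 had -0.52 (adjusted p = 0.0026) and Slc7a7 -0.32 (adjusted p = 0.000737), and Slc6a20a and Slc1a1 were not called. The order of the sets was not the same in each FMT group. In Con-FMT none of the 10 was lower in set 2 without overlap (8.16% of all genes), and Slc6a19 and Slc7a7 were higher in set 2 without overlap (6.25% of all genes). In A10-FMT all but Slc1a1, 9 of 10, were lower in set 2 without overlap (14.0% of all genes), and in A100-FMT 4 were, Slc15a1, Slc7a9, Slc3a1 and Slc7a7 (1136 of the 11337 genes tested). Any difference in age, duration or handling between the sets cannot be told apart here, since the labels do not say what the sets are.

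Other transporters of amino acids and peptides were taken from a list of 48, of which 44 were in the table and 19 were tested. In Sa vs. A10-FMT, 3 rose and 3 fell in set 1, with a median of -0.04, and none rose and 1 fell in set 2, with a median of -0.02. When replicate 3 of Sa in set 1 was left out, 20 were tested, of which 1 rose and 1 fell in set 1 and 2 fell in set 2. The difference between the sets passed for 3 upward and 4 downward, or for 2 and 2 without that replicate. Summed over the 44 genes, group means ran from 288 to 322 FPKM. Slc43a2, an exporter of large neutral amino acids, was called in both sets and rose from 54.7 ± 1.57 to 79.1 ± 10.8 FPKM (SD) in set 1 (log2 change 0.51, adjusted p = 0.00328, and 0.49 with 0.045 without replicate 3 of Sa) and fell from 69.2 ± 6.82 to 46.7 ± 1.49 FPKM in set 2 (-0.55, adjusted p = 0.0289). Slc6a14, a broad carrier of neutral and cationic amino acids, rose in set 1 from 0.525 to 1.97 FPKM (0.96, adjusted p = 0.0343). Slc38a6, a carrier related to glutamine transporters, rose by 0.34 (adjusted p = 0.0478). Neither passed without replicate 3 of Sa (adjusted p = 0.107 and 0.401). Both had a lower change in set 2 than in set 1 in the main fit, Slc6a14 by -1.33 (adjusted p = 0.0324) and Slc38a6 by -0.50 (adjusted p = 0.0382), and so did Slc16a10, an exporter of aromatic amino acids, with -0.71 (adjusted p = 0.00473). Which of these differences passed without replicate 3 of Sa in set 1 is not given here.

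Those that fell in set 1 were Slc7a1, which imports cationic amino acids into most dividing cells, with -0.43 (adjusted p = 0.00194), the glycine carrier Slc6a9 with -0.38 (adjusted p = 0.0177) and the glutamine carrier Slc1a5 with -0.32 (adjusted p = 0.0364). Of these, Slc7a1 passed without replicate 3 of Sa (-0.36, adjusted p = 0.0376), and Slc6a9 and Slc1a5 did not (adjusted p = 0.215 and 0.412). Slc7a1 was at 14.8 to 17.9 FPKM in A10-FMT of set 1 and at 23.3 to 25.4 FPKM in A10-FMT of set 2, which is the reverse order of Slc6a19. Slc6a6, the taurine carrier, was at 37.1 and 41.2 FPKM in these groups and had no call against Sa.

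Partners of the transporters at the membrane had calls in the same directions, up in set 1 and down in set 2. Of 9 listed, 7 were tested, and 6 rose in Sa vs. A10-FMT of set 1 while 2 fell in set 2. These counts were 3 and 5 without replicate 3 of Sa in set 1. Pdzk1, a scaffold of the brush border, rose by 0.96 (adjusted p = 0.00234) in set 1 and fell by 0.91 (adjusted p = 0.0325) in set 2. Anpep, an aminopeptidase that binds Slc6a19, rose by 0.57 (adjusted p = 0.00088) and fell by 0.55 (adjusted p = 0.0226). Slc9a3, the sodium-proton exchanger that keeps the proton gradient for Slc15a1, rose by 0.63 (adjusted p = 0.0155) in set 1, and its adaptor Slc9a3r1 by 0.48 (adjusted p = 0.00421). Atp1b1, the beta subunit of the sodium pump, rose by 0.33 (adjusted p = 0.0212). Leaving out replicate 3 of Sa in set 1, Anpep had 0.47 (adjusted p = 0.0215) and Slc9a3r1 0.55 (adjusted p = 0.0235) in that set, and Pdzk1, Slc9a3 and Atp1b1 did not pass (adjusted p = 0.069, 0.31 and 0.643).

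Peptidases, which supply the substrates, numbered 20 tested genes of 28 in the table, and this list shares genes such as Anpep with the list of partners. In Sa vs. A10-FMT, 15 rose and none fell in set 1, and none rose and 4 fell in set 2, with medians of 0.56 and -0.47. There were 8 that rose in set 1 and 13 that fell in set 2 without replicate 3 of Sa in set 1. In set 1, Mep1b, a subunit of meprin, rose by 0.87 (adjusted p = 0.00051), Dpp4, which removes dipeptides after proline, by 1.15 (adjusted p = 0.00109) and Mme, or neprilysin, by 1.34 (adjusted p = 0.00491). Dpp4 and Mme were at 26.8 and 9.85 FPKM in replicate 3 of Sa and at 59.1 and 36.7 FPKM in replicate 1, against 80.8 to 98.2 and 43.8 to 55.0 FPKM in A10-FMT. Without replicate 3, Mep1b had 0.64 (adjusted p = 0.00957) and Dpp4 0.60 (adjusted p = 0.0197), and Mme had 0.44 and did not pass (adjusted p = 0.158). Tmprss15, the enteropeptidase that starts the activation of trypsin, rose from 0.475 to 3.86 FPKM (1.74, adjusted p = 0.000664, and 1.49 with 0.0186 without replicate 3 of Sa). In set 2, Xpnpep2, which removes residues before proline, fell by 0.82 (adjusted p = 0.0226), Ggt1, which cleaves glutathione, by 0.58 (adjusted p = 0.0325) and Cndp2, a cytosolic dipeptidase, by 0.47 (adjusted p = 0.0485). The difference between the sets had 17 calls of 20, all downward, and 16 without replicate 3 of Sa in set 1.

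Genes of the amino acid response, which cells raise when amino acids are short, had calls in both directions. Of 15 tested, 2 rose and 4 fell in Sa vs. A10-FMT of set 1 and none passed in set 2, where the median was 0.18. With replicate 3 of Sa in set 1 left out, 1 rose and none fell in set 1, and 1 rose in set 2. Atf4, the transcription factor of this response, had 0.08 (adjusted p = 0.239) in set 1 and -0.03 in set 2. Aldh18a1, which starts proline synthesis, fell by 0.48 (adjusted p = 0.00275) and Shmt2, the mitochondrial serine hydroxymethyltransferase, by 0.49 (adjusted p = 0.005) in set 1, calls that were lost without replicate 3 of Sa (adjusted p = 0.0859 and 0.171).

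The summed markers of absorptive enterocytes had their highest and lowest group means in the same A10-FMT groups as the summed transporters. The order of the other groups was not the same. For the transporters A100-FMT of set 2 was at 546 FPKM, below Sa of set 1 at 616. For the markers it was at 7700 FPKM, above Sa of set 1 at 6450. All 10 absorptive enterocyte markers were above Sa in A10-FMT of set 1, where 9 rose, and all 10 were below Sa in set 2, where none passed, with medians of 0.74 and -0.57. In the fit without replicate 3 of Sa in set 1, 4 rose in set 1 and 4 fell in set 2. Their sum was 7310 and 5600 FPKM in Sa, 6560, 7010 and 7660 in Con-FMT, 10700, 12100 and 13300 in A10-FMT and 8640, 10000 and 7940 in A100-FMT of set 1. The sum in set 2 was 7180, 8040 and 8330 FPKM in Sa, 6850, 8530 and 8930 in Con-FMT, 6180, 4460 and 5380 in A10-FMT and 7060, 8060 and 7980 in A100-FMT. Apoa1 was the most abundant marker and none was at 0. Fabp2, the fatty acid binding protein of enterocytes, rose by 1.44 (adjusted p = 0.000584) in set 1, or by 0.89 without replicate 3 of Sa (adjusted p = 0.0102), and its change of -0.86 in set 2 did not pass (adjusted p = 0.0562). In bulk tissue, fewer enterocytes and less transporter RNA per enterocyte cannot be told apart.

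The sum of the 10 transporters was also divided by markers of the same library. The Sa means of set 1 rest on 2 libraries. Over Vil1, which encodes the microvillus protein villin, it was 0.935 in Sa and 0.931 in A10-FMT of set 1, and 0.917 in Sa and 0.821 in A10-FMT of set 2. Con-FMT of set 1 was at 0.855 over Vil1 and A100-FMT at 0.872, and in set 2 they were at 0.892 and 0.915. Over the sum of the 10 enterocyte markers it was 0.0967 in Sa and 0.0665 in A10-FMT of set 1, and 0.0833 and 0.095 in set 2. Compared with Sa it was thus lower in A10-FMT of set 1 and higher in A10-FMT of set 2. Con-FMT and A100-FMT were at 0.0833 and 0.0709 in set 1 and at 0.0776 and 0.0712 in set 2. Over the sum of the peptidases it was 0.193 in Sa and 0.167 in A10-FMT of set 1, and 0.166 and 0.182 in set 2. Con-FMT and A100-FMT were at 0.173 and 0.166 in set 1, so Sa was above every FMT group there, and at 0.166 and 0.174 in set 2. These ratios were not tested.

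Crypt proliferation genes had the opposite order in the A10-FMT groups. Of 6, 3 fell in Sa vs. A10-FMT of set 1, 5 fell in Con-FMT vs. A10-FMT of set 1 and none passed in set 2, where all 6 were higher in A10-FMT. Leaving out replicate 3 of Sa in set 1, 3 fell in set 1 and 2 rose in set 2. Their sum was 365 and 307 FPKM in Sa, 368, 366 and 343 in Con-FMT, 294, 296 and 281 in A10-FMT and 326, 323 and 334 in A100-FMT of set 1. The sum in set 2 was 369, 345 and 322 FPKM in Sa, 375, 333 and 365 in Con-FMT, 399, 398 and 378 in A10-FMT and 405, 373 and 388 in A100-FMT. Pcna, a clamp of DNA replication, was the most abundant, at 137 FPKM in A10-FMT of set 1 and 172 in A10-FMT of set 2. The part of these cell types in the values of the transporters was not tested.

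**Figure D4:**
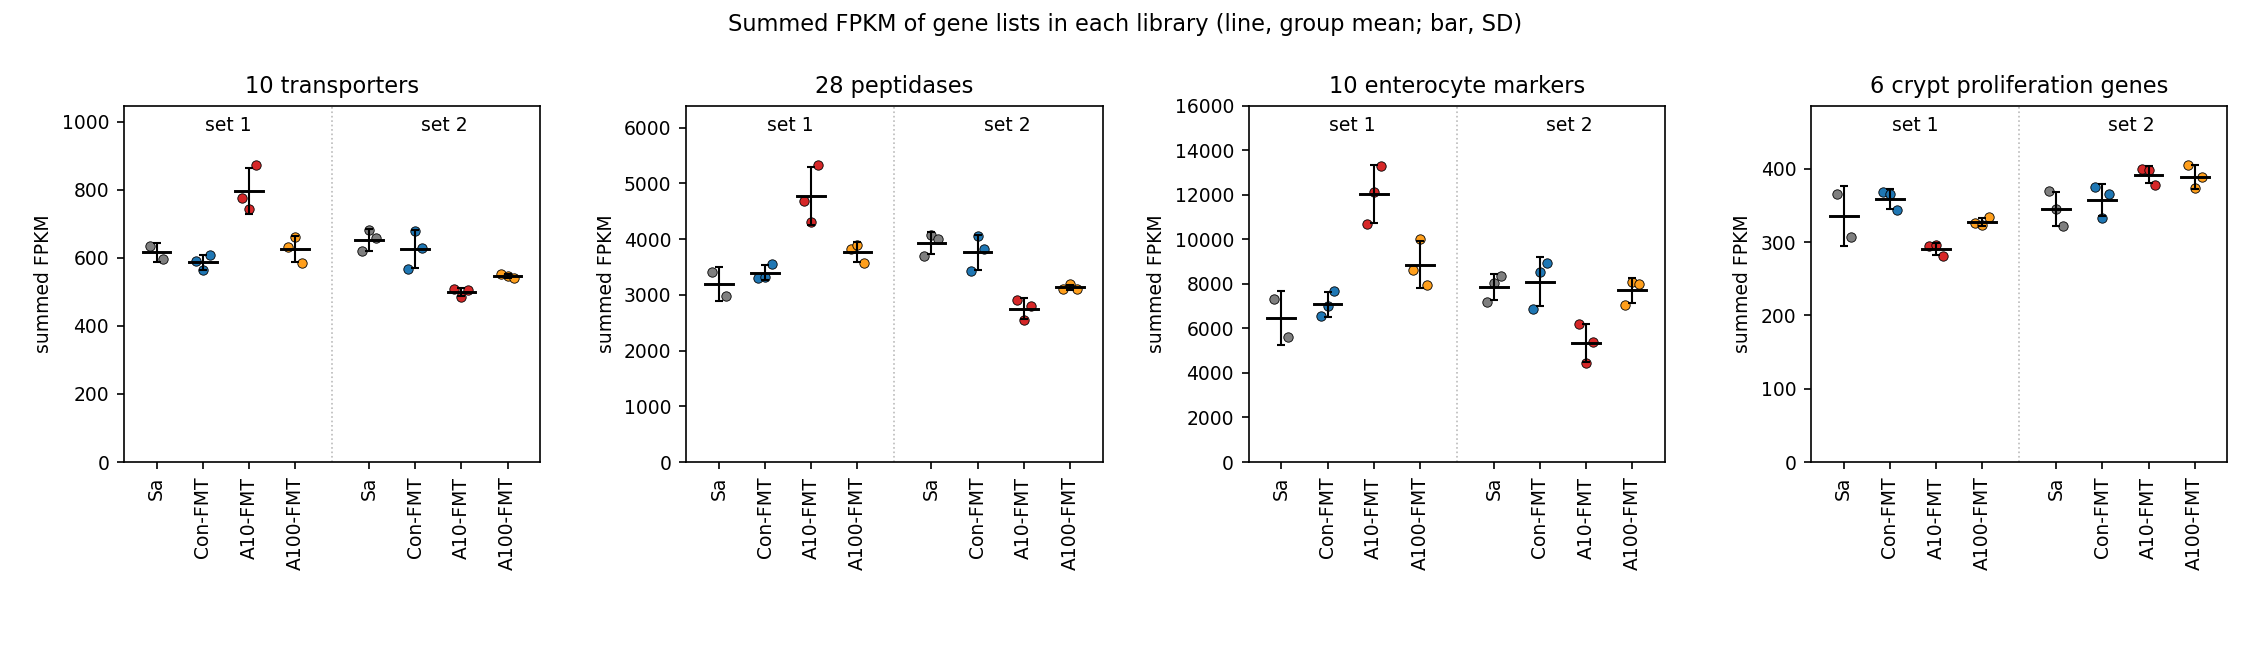
Summed FPKM (vertical axes, linear, from 0) of the 10 transporters, 28 peptidases, 10 enterocyte markers and 6 crypt proliferation genes in each library, by treatment and set (points, libraries; line, group mean; bar, SD; n = 3, and 2 for Sa of set 1). The first 3 group means are highest in A10-FMT of set 1 and lowest in A10-FMT of set 2, and the crypt mean is lowest in A10-FMT of set 1.

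Other marker lists were followed as well, and their part was not tested either. Of 8 proximal small intestine genes, 3 rose and 1 fell in Sa vs. A10-FMT of set 1 and 1 fell in set 2, and of 7 distal genes tested, 2 rose in set 1 and none passed in set 2, so genes of both ends had the same sign of median (0.53 and 0.54 in set 1, -0.60 and -0.62 in set 2). Without replicate 3 of Sa in set 1, 1 proximal gene rose in set 1, where the proximal median was 0.08 and the distal 0.43 with no distal call, and 2 genes of each list fell in set 2. The proximal sum was led by Fabp1 and ran from 3080 to 4090 FPKM in A10-FMT of set 1 and from 1180 to 1830 in A10-FMT of set 2. The distal sum was led by Tff3, a goblet cell peptide, and ran from 4060 to 4430 and from 2710 to 3150 FPKM. Of 6 Paneth genes none passed in set 1 and 3 rose in set 2, with sums of 12100 to 19800 FPKM in A10-FMT of set 1 and 12000 to 17300 in A10-FMT of set 2, led by Defa24. No goblet gene of 6 (sums of 6050 to 10500 FPKM, led by Zg16) and no enteroendocrine gene of 7 (sums of 185 to 320 FPKM, led by Gip) passed in Sa vs. A10-FMT of either set. Without replicate 3 of Sa in set 1, 5 Paneth and 2 enteroendocrine genes rose in set 2 and 1 goblet gene rose in set 1.

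Markers of the remaining cell types were mostly low, the highest being Mylk and Hba-a1. The T cell sum was 4.09 to 26.4 FPKM and was led by Cd3g, with Cd4 at a mean of 0.0835 FPKM and none of 3 tested genes called in Sa vs. A10-FMT. Macrophage genes summed to at most 2.62 FPKM, with Adgre1 listed at 0 in 17 libraries, and neuron and glia genes to at most 0.59 FPKM. Of the smooth muscle list only Mylk, which other cells express too, was abundant, at a mean of 66.9 FPKM. Pancreatic acinar genes summed to at most 7.25 FPKM, led by Cela1, with Cpa1 listed at 0 in 21 libraries. Erythroid genes summed to 0.21 to 40.4 FPKM, led by Hba-a1, and tuft cell genes to at most 3.86 FPKM, led by Trpm5, whose rise of 0.72 in Sa vs. A10-FMT of set 1, lost without replicate 3 of Sa (adjusted p = 0.0984), was the only call among the tested genes of the T cell, smooth muscle, pancreatic, erythroid and tuft lists in that comparison. B and plasma cell genes were under 1 FPKM on average, Jchain being highest at 0.27.

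How the genes moved relative to each other was read from ratios within a library, where FPKM is per length. Slc7a9 over Slc3a1 was 1.74 ± 0.18 (SD, 23 libraries) with a range of 1.4 to 2.15. The highest, 2.15, was that of replicate 3 of Sa in set 1, and the other libraries reached at most 2.02. Slc7a5, Slc7a6, Slc7a7 and Slc7a8, light chains that pair with Slc3a2, summed to 1.41 ± 0.05 times Slc3a2 with a range of 1.3 to 1.5, although Slc7a7 and Slc7a8 did not move together. Slc7a7 over Slc7a8 was 1.46 ± 0.03 in A10-FMT of set 1 and 0.913 ± 0.064 in A10-FMT of set 2, with 0.832 to 1.17 in the other 17 libraries. Slc6a19 over Slc6a20a was 3.55 ± 0.44 in A10-FMT of set 1 and 1.25 ± 0.15 in A10-FMT of set 2, and 1.39 to 2.21 in the others. Any change shared by all genes of a library cancels in these ratios, while a trend with GC content, as in replicate 3 of Sa in set 1, need not.

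**Figure D5:**
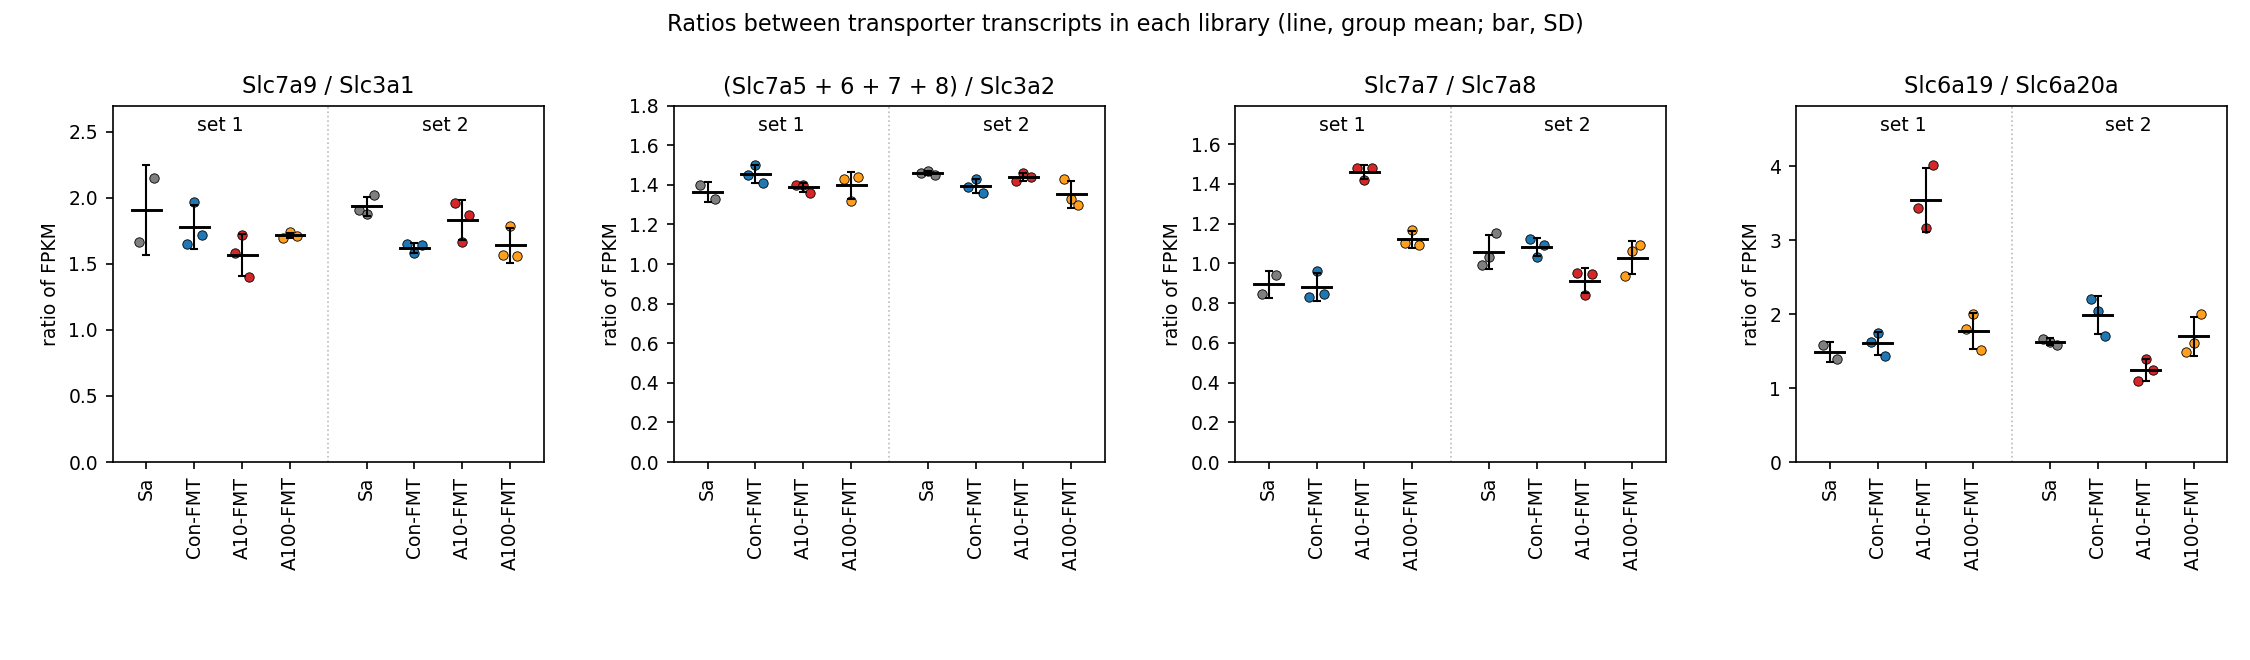
Ratios of FPKM within a library (vertical axes, linear, from 0) for the apical pair, the light chains over the basolateral heavy chain, both basolateral light chains and both sodium-coupled carriers, by treatment and set (points, libraries; line, group mean; bar, SD; n = 3, and 2 for Sa of set 1). The light chain sum over Slc3a2 stays between 1.3 and 1.5, while Slc6a19 over Slc6a20a reaches 3.17 to 4.02 in A10-FMT of set 1.

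Across the 23 libraries the genes fell into a group that moved together and others that did not. Pearson's r on the log2 scale was 0.934 between Slc15a1 and Slc3a1, 0.932 between Slc6a19 and Slc3a1, 0.929 between Slc6a19 and Slc7a7, and 0.909 between Slc7a7 and Slc3a2. Slc6a20a was most like Slc7a8, with 0.731. Slc1a1 had -0.371 to 0.175 with the other 9. These points share the 8 groups and the tissue, so they describe the groups as much as the genes.

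The genes outside the 10 with the pattern most like Slc6a19 were Ezr, Slc6a8 and Slc27a4, with r of 0.964, 0.944 and 0.942 over 23 libraries. Ezr encodes ezrin, a linker of microvilli, Slc6a8 a creatine carrier and Slc27a4 a fatty acid transport protein. Slc15a1 was most like H2-Q1, a gene of the major histocompatibility complex (0.966), Mpp1 (0.958) and Prr15 (0.95). Slc7a9 was most like Cdhr2, an adhesion protein of microvilli (0.928), Nat8 (0.908) and the peptidase Xpnpep2 (0.903).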

How the data were processed

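The authors extracted RNA with TRIzol, sequenced it on a HiSeq instrument and deposited 1 table of FPKM values, rounded to 2 decimals, for 19215 entries (17842 NCBI Gene numbers, 17725 of them with a symbol, and 1373 identifiers of the sequencing provider). The study's methods speak of RPKM where the file header says FPKM, and the submitters' processing notes name mm10. Aligner, counting and read depth were not given in the sources used here. From values near 1 read in 162 genes, relative depth was 0.817 to 1.07 of the median library, with at least 12 values per library. Total FPKM was 556466 to 667957 per library.

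Groups came from the sample titles. For Sa of set 1, replicate 3, title and description name different columns, so the description's column was an alternative. Replicate numbers came from the titles.

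Values were tested as log2(FPKM + 1) with limma 3.58.1 in R 4.3.3: 8 group means, moderated variances with a trend, 23 libraries, and the 11337 entries with a mean of at least 1 FPKM (7878 were not tested), with Benjamini-Hochberg adjustment at 0.05. Fold changes are on that scale, which understates those of low genes, and are given as the second group minus the first. A difference between sets is set 2 minus set 1. The procedure was tested on simulated data, and the outcome is not given here. Tables and figures were made in Python 3.11.15 with pandas 2.3.3, numpy 2.4.6, matplotlib 3.10.9 and scipy 1.17.1.

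Named genes were the 10 transporters, the 3 most abundant tested genes of each list, called genes of the lists of other transporters, partners and peptidases (at most 5 per list and comparison, by size of change), and for Slc15a1, Slc6a19 and Slc7a9 the 3 genes most correlated with each. Defining markers named for their low level, and Vil1, were added. The members and lists were chosen with earlier results of these data known.

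Alternatives were a pseudocount of 0.1, trimmed-mean scaling, quantile normalization, a filter at 5 FPKM or none, only the groups compared, array quality weights, the replicate number as a block, the description's column, each library left out and, chosen after seeing the data, a GC content and length correction (10527 genes, 92.86% of those tested). Listed genes without an entry in the table were not analysed here. Some listed genes are not reported here by name.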

Additional observations from a re-analysis of the deposited data

Results flagged for a closer look

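For 7 of the 10 transporters the change in Sa vs. A10-FMT differed between the sets by limma's test of the difference itself (log2 scale, set 2 minus set 1). Of the 11337 genes tested, 3216 differed. With array quality weights none of the 10 passed. In the main fit the differences were -1.96 for Slc6a19, -1.64 for Slc15a1, -1.09 for Slc36a1, -0.971 for Slc3a1, -0.868 for Slc7a7, -0.782 for Slc7a9 and -0.342 for Slc3a2. The same 7 genes differed between the sets in Con-FMT vs. A10-FMT, a test chosen after the values were seen in which no Sa mean takes part: -2.0 for Slc6a19, -1.41 for Slc15a1, -0.969 for Slc7a7, -0.961 for Slc36a1, -0.941 for Slc3a1, -0.59 for Slc7a9 and -0.583 for Slc3a2. These 2 tests share the A10-FMT libraries, and in the second 2354 of the 11337 genes tested differed.

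In Sa vs. A100-FMT, 3033 of the 11337 genes tested differed between the sets, and with array quality weights no transporter did. In the main fit the difference between the sets was -0.875 for Slc15a1, -0.658 for Slc36a1, -0.502 for Slc7a9, -0.397 for Slc3a1 and -0.311 for Slc7a7. Without replicate 3 of Sa in set 1, Slc7a9 alone of these was called.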

How the results depend on the processing

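None of the 58 called values of the 10 transporters reversed its sign under the 33 settings tried. Counts of transporters called are given here for each setting in which they moved by more than 1.5 times, without the share of all genes in the same fit. With no filter on low values the count was 0 in place of 1 in Sa vs. Con-FMT of set 1, 2 in place of 4 in Sa vs. A100-FMT of set 1, 1 in place of 4 in Sa vs. A10-FMT of set 2, 0 in place of 3 in Con-FMT vs. A10-FMT of set 2, 3 in place of 5 in A10-FMT vs. A100-FMT of set 1, 0 in place of 1 in both sets averaged for Sa vs. A100-FMT, and 3 in place of 5 for its difference between sets. With a mean of at least 5 FPKM the Sa vs. A100-FMT count over both sets was 0. With quantile normalization the counts were 0 (Sa vs. Con-FMT, set 1), 2 (Sa vs. A100-FMT, set 1), 3 (A10-FMT vs. A100-FMT, set 1) and 0 (Sa vs. A100-FMT, both sets). With trimmed-mean scaling the Sa vs. A100-FMT counts were 2 in set 1, 0 over both sets and 3 for the difference.

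With only the groups compared in the fit, 0 were called in A10-FMT vs. A100-FMT of set 1 and against Sa of set 1 for Con-FMT, A10-FMT (in place of 6) and A100-FMT, in Con-FMT vs. A10-FMT of set 2, and in both sets averaged for Sa vs. A100-FMT and for its difference. That fit has fewer libraries to estimate the spread. Array quality weights gave both Sa libraries of set 1 a weight of 0.0859, against 0.809 to 2.63 for the others. In a group of 2 libraries the weights cannot tell which of them stands apart. With them 0 were called in the 3 comparisons with Sa of set 1, in both sets averaged for Sa vs. A100-FMT, and for the differences of A10-FMT (in place of 7) and A100-FMT. Counts rose to 8 in Sa vs. A10-FMT of set 2, 6 in Sa vs. A100-FMT of set 2, 7 in Con-FMT vs. A10-FMT of set 2, 3 in Con-FMT vs. A100-FMT of set 2 and 1 in Con-FMT vs. A100-FMT of set 1. With the description's column the counts were 0 (Sa vs. Con-FMT, set 1), 2 (Sa vs. A100-FMT, set 1) and 1 (Sa vs. A100-FMT, set 2). After the GC content and length correction they were 0, 2 and 2 in these comparisons, 7 in Sa vs. A10-FMT of set 2 and 2 in both sets averaged for Sa vs. A100-FMT. Causes were not tested.

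Replicate numbers did not pair the libraries: libraries of 1 number correlated with a mean r of 0.005 in set 1 and -0.014 in set 2, and 4 of 15 and 6 of 18 pairs were over 0.1. With the number as a replicate block the counts were 0 in Sa vs. Con-FMT of set 1, 0 in Con-FMT vs. A10-FMT of set 2, 2 in A10-FMT vs. A100-FMT of set 1 and 0 in both sets averaged for Sa vs. A100-FMT.

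Leaving out each library in turn gave, against Sa in set 1, 0 to 3 for Con-FMT, 6 to 7 for A10-FMT and 0 to 4 for A100-FMT, and in set 2 0 to 0, 0 to 5 and 0 to 4. Con-FMT vs. A10-FMT had 6 to 7 in set 1 and 0 to 4 in set 2, Con-FMT vs. A100-FMT 0 to 0 and 0 to 1, and A10-FMT vs. A100-FMT 2 to 6 and 0 to 0. Over both sets the ranges were 0 to 2, 0 to 4 and 0 to 3 for Con-FMT, A10-FMT and A100-FMT, and for their differences between sets 0 to 2, 6 to 7 and 1 to 6. The difference between sets in Con-FMT vs. A10-FMT had 7 to 7, and the sets compared over the FMT groups 6 to 8.

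Depth is known in relative terms only, and no counting intervals are given.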

Other observations

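Paneth cell genes were called in both sets. All 6 were higher in A10-FMT than in Sa in set 2, where 3 rose, among them the defensin gene Defa24 with 0.86 (adjusted p = 0.0485 by limma), and 5 of 6 fell in Sa vs. A100-FMT of set 1. These counts were 5 and 0 without replicate 3 of Sa in set 1. Their sum was 20400 and 18600 FPKM in Sa, 17600, 20200 and 15300 in Con-FMT, 15200, 19800 and 12100 in A10-FMT and 10800, 8560 and 7240 in A100-FMT of set 1. The sum in set 2 was 9810, 8420 and 6390 FPKM in Sa, 12100, 11600 and 12700 in Con-FMT, 17200, 17300 and 12000 in A10-FMT and 11500, 9290 and 9280 in A100-FMT. Both Sa libraries of set 1 were thus above every Sa library of set 2, an order that none of the 10 transporters except Slc7a8 and Slc3a2 had.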
